A study of Mus musculus with 5 samples.

Results

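Keratins and the proteins of the cornified envelope were examined for the repressive histone mark H3K27me3 in cultured mouse dermal fibroblasts, cells of the mesenchymal layer of skin that do not form a cornified layer. The set was chosen by gene symbol alone. It held protein-coding genes named Krt followed by digits, genes whose symbol starts with Krtap, Sprr or Lce and a digit, and Lor, Ivl and Flg. This gave 145 of 21951 protein-coding genes of the GENCODE release 21 annotation of GRCm38: 49 keratins, 57 keratin-associated proteins, 21 late cornified envelope genes, 15 small proline-rich genes and the 3 genes Lor, Ivl and Flg.

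Keratins are the intermediate filament proteins of epithelia, built as pairs of a type I and a type II chain, and each layer of epidermis and hair uses its own pairs. Keratin-associated proteins cross-link the filaments of the hair shaft, and loricrin, involucrin, filaggrin and the small proline-rich and late cornified envelope proteins build the insoluble shell of dead surface cells. H3K27me3 is written by Polycomb repressive complex 2, often lies at CpG-rich gene starts, and is a common state of lineage genes that a cell type does not use, although many silent genes lack it.

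The data were H3K27me3 ChIP-seq peak lists of wild-type (WT) dermal fibroblasts, 2 libraries labelled E14 and 2 labelled E17, cultured before fixation. The study's methods call these stages E14.5 and E18.5, and the label names are used here. The labels and the methods also name different culture media, chromatin shearing and library kits, and which of them were used was not resolved here. The methods give n = 2 for each dermal preparation without saying whether these were separate animals, so spread between the libraries may be technical.

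The lists held 21546 and 16574 peaks at E14 and 10429 and 7107 at E17. Read counts are not part of these lists. Sequencing depth therefore cannot be read from them. The study's methods state that E18.5 WT and Kdm6b-knockout samples were subsampled to the read depth of other samples. They list this pair apart from the WT samples of both stages, and whether the subsampling covers the E17 libraries is not clear. Absence of a peak means only that nothing near the gene passed that list's threshold. A gene was counted as marked in a library where a peak lay within 3000 bp of any of its start sites, and covered length was the number of bases of these windows under peaks. None of 14 fibroblast marker genes, among them Col1a1, Pdgfra, Twist2 and Vim, had a peak in any library, beside 74.1% of all coding genes without one. A peak was also absent at 6 of 7 melanocyte, 5 of 6 endothelial and 5 of 6 immune marker genes. It was absent at 2 of 5 Schwann and neural and 1 of 5 muscle marker genes, so lack of the mark does not identify the cells. Of 9 keratinocyte marker genes, 6, 5, 5 and 4 had a peak in E14 replicate 1, E14 replicate 2, E17 replicate 1 and E17 replicate 2. Those with a peak were Cdh1, Epcam, Perp, Itgb4, Sfn and, in E14 replicate 1 alone, Col17a1. Krt5, Krt14 and Trp63, the defining markers of basal keratinocytes, had none. Expression was not measured, so the share of other cells in the cultures was not tested.

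Most of the 145 genes had no peak. In E14 replicate 1, 23 of them (15.9%) were marked, beside 24.3% of all protein-coding genes. In E14 replicate 2 the count was 16 (11%), beside 20.6%. In E17 replicate 1 it was 12 (8.28%), beside 15.2%, and in E17 replicate 2 it was 10 (6.9%), beside 12.8%. The share was below that of all coding genes in every library. A peak in both E14 libraries was found at 16 of the 145 genes (11%), beside 19.5% of coding genes, and a peak in both E17 libraries at 9 (6.21%), beside 12.2%. In all, 121 genes (83.4%) had no peak in any library, beside 74.1% of coding genes. The median distance from the gene start to the nearest peak was 48.2 and 126 kb at E14 and 205 and 185 kb at E17, beside 34.5, 53.5, 96.1 and 134 kb for coding genes.

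Other clustered families that fibroblasts do not use had lower shares of marked genes than the 11% of the set, beside 19.5% of all coding genes. Of 1093 olfactory receptor genes, 20 (1.83%) had a peak in both E14 libraries. The count was 1 of 327 vomeronasal receptor genes and 2 of 42 beta-defensin genes (4.76%). At 28.4% of the vomeronasal genes, under 50% of the 100 bp pieces of the windows mapped to a single place. This held for 2.76% of the set and 5.64% of coding genes, and its part in the vomeronasal count was not tested. Collagen genes, a family with many members that fibroblasts express, held the mark at 21 of 44 (47.7%), although the fibrillar collagens Col1a1, Col1a2 and Col3a1 were without a peak. These shares are descriptions and were not tested against each other.

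The mark was found at several keratins of simple epithelia, which line ducts and embryonic surfaces. Of 6 such genes, 3 (50%) had a peak in both E14 libraries, beside 19.5% of coding genes. In both E17 libraries it was 2 (33.3%), beside 12.2%. Krt8 encodes the type II keratin of the earliest epithelia, and its windows had 4640 and 3245 bp under peaks at E14 and 3300 and 2121 bp at E17. The stages overlapped at Krt8, since E17 replicate 1 stood just above E14 replicate 2. Krt18, the type I partner of Krt8 and its neighbour on chromosome 15, had 887 and 1766 bp at E14 and 571 and 610 bp at E17, with both E17 libraries below both E14 libraries. Krt7, a type II keratin of ducts and glands, had 1255 and 428 bp at E14, 421 bp in E17 replicate 1 and no peak in E17 replicate 2. Krt19, a type I keratin of ducts and of the hair follicle, differed from these genes, with 389 bp in E14 replicate 1, 968 bp in E17 replicate 1 and no peak in replicate 2 of either stage. Krt20 and Krt23, the remaining genes of this list, had no peak.

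The keratins of the proliferating basal layer were without the mark. Among all coding genes 74.1% had no peak in any library, so 5 such genes show nothing particular to this layer. Krt5 and Krt14, the pair of basal keratinocytes, Krt15, a basal and follicle stem cell keratin, and Krt16 and Krt17, which are induced on activation, had no peak within 3000 bp in any of the 4 libraries. The nearest peak to the start of Krt5 lay 77.5 and 77.0 kb away at E14 and 125 and 130 kb away at E17. For Krt14 the distances were 62.5 and 146 kb at E14 and 61.8 and 146 kb at E17. The windows were readable for alignment, as 93.3% of the 100 bp pieces at Krt5 and 96.0% at Krt14 mapped to a single place in the genome.

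Suprabasal keratins, which replace the basal pair as cells leave the basal layer, were split. Krt1, the type II chain of the suprabasal pair, had 5399 and 3657 bp under peaks at E14 and 1360 and 803 bp at E17. All of its E17 values were below its E14 values, and the mean fell by 76.1%. Its type I partner Krt10, on chromosome 11, had no peak in any library, and the nearest peaks lay 9.45 and 8.43 kb away at E14 and 257 and 237 kb away at E17. Krt77, another type II keratin, had 3488 and 1727 bp under peaks around its start sites at E14 and 0 bp at E17. Its strongest peaks lay over the 3′ part of the gene and were called at both stages, at a percentile of 89.5 and 87.2 at E14 and 88.0 and 79.8 at E17, beside 12.3 and 40.1 for the E14 peaks at its start. The E17 peaks there began 8.28 and 8.46 kb from the start, so Krt77 lacked the mark at its start sites and not over its whole length. Krt2, a keratin of the uppermost living layers, was counted as marked at E14 with only 19 bp in replicate 1 and 545 bp in replicate 2, from peaks that did not overlap each other. Krt9 and Krt80 of the same list had no peak.

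Hair and inner root sheath keratins mostly had no peak, near the 74.1% of all coding genes without a peak in any library. Krt87, a type II hair keratin, had a strong peak. Krt87 had 4224 and 3460 bp under peaks at E14 and 3012 and 2834 bp at E17. Both E17 values were lower, but the mean fell by only 23.9%. Ranked by fold enrichment within its own list, its peak had a percentile of 96.6 and 97.1 at E14 and 94.7 and 90.5 at E17, above the best peak of every other gene of the set in each library. Krt86, another hair keratin, had 1482 and 1280 bp at E14, 323 bp in E17 replicate 1 and no peak in E17 replicate 2. Krt81 had 207 bp in E14 replicate 1 alone, and the other 10 of 13 hair keratins had no peak. Among 8 inner root sheath and companion layer keratins, Krt27 had 561 and 849 bp at E14, again from peaks that did not overlap each other, and none at E17. Krt28 had 2381 bp in E14 replicate 1 alone, and Krt25 and Krt71, a type I and a type II chain of the inner root sheath, had no peak.

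Of 7 keratins of oral, corneal and other stratified epithelia, Krt79, a keratin of the hair canal and sebaceous duct, was the only gene with a peak. Among all coding genes 25.9% had a peak in at least 1 library. Krt79 had 2373 and 1453 bp at E14 and 1009 and 617 bp at E17, without overlap between the stages. Krt222, a keratin-like type I gene, had 559 and 249 bp at E14 and none at E17.

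Keratin-associated proteins carried the mark at 4 of 57 genes (7.02%) in both E14 libraries, below the 19.5% of coding genes. In both E17 libraries it was 3 (5.26%), below 12.2%. Krtap5-4 and Krtap5-1 encode cysteine-rich proteins of the hair shaft and lie next to each other on chromosome 7. Krtap5-4 had 6001 and 4600 bp under peaks at E14 and 4304 and 4159 bp at E17, and its mean fell by 20.2%. Krtap5-1 had 6050 and 2975 bp at E14 and 5027 and 1347 bp at E17, so that its stages overlapped. In E14 replicate 1 both genes lay under the same peak of 15313 bp. Krtap17-1 had 3676 and 1375 bp at E14 and 1599 and 506 bp at E17, with E17 replicate 1 above E14 replicate 2. Krtap4-13 had 2109 and 1429 bp at E14 and none at E17, in a window of which 46.7% of the pieces mapped to a single place. Krtap28-10, Krtap9-3 and Krtap5-2 had 1083, 490 and 289 bp in E14 replicate 1 alone.

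At the cornified envelope genes the mark was found at Lor and almost nowhere else. For comparison, 25.9% of all coding genes had a peak in at least 1 library. Lor, which encodes loricrin, the main protein of the envelope, had 4430 and 2520 bp under peaks at E14 and 1913 and 913 bp at E17. The stages did not overlap at Lor, and the mean fell by 59.3%. Ivl, an early scaffold protein of the envelope, and Flg, whose product bundles keratin filaments, had no peak in any library, although only 50.8% of the pieces of the Flg windows mapped to a single place. Among 21 late cornified envelope genes Lce3f alone had a peak, of 808 bp in E14 replicate 1. Among 15 small proline-rich genes Sprr2a2 alone had a peak, of 218 bp in E17 replicate 2, and 0.833% of the pieces of its window mapped to a single place.

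**Figure D1:**
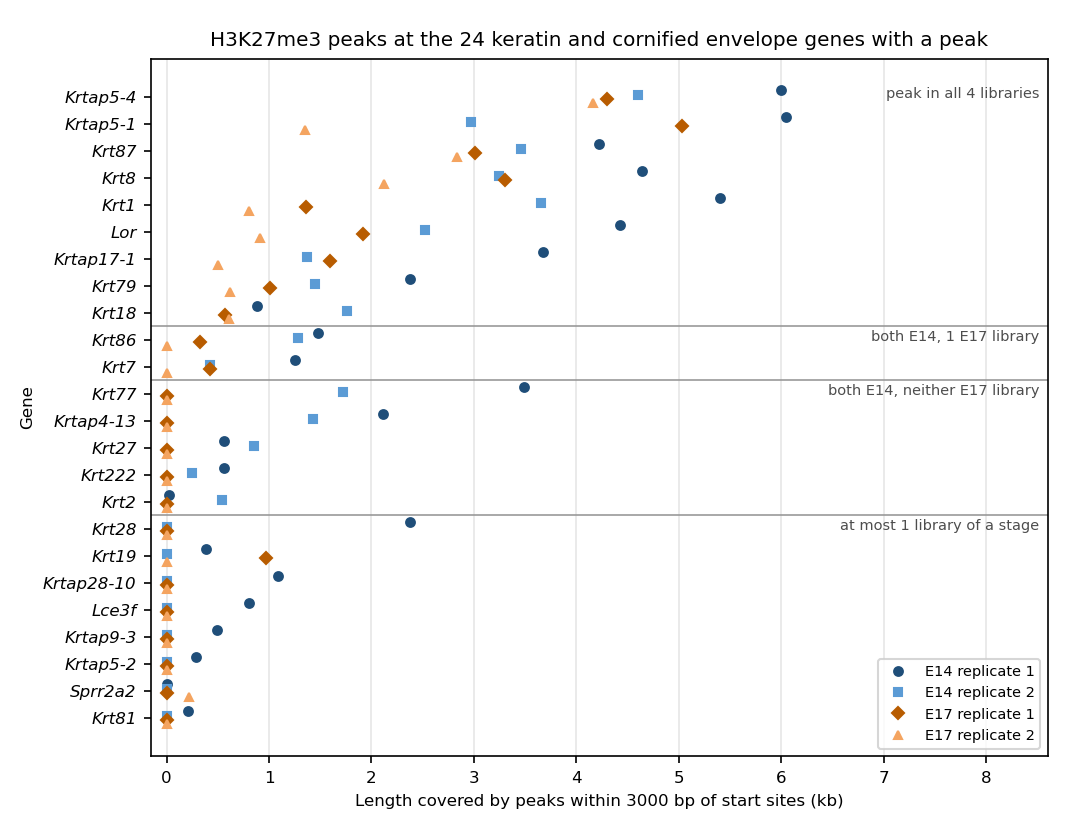
Length under H3K27me3 peaks (kb, horizontal axis) within 3000 bp of the start sites of the 24 genes with a peak in at least 1 library (vertical axis), 1 symbol per library, ordered by the libraries that hold a peak. Krtap5-4 and Krt87 keep most of their length at E17, while Krtap4-13 and Krt222 are at 0 in both E17 libraries.

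Other genes of the epidermis, outside the symbol rule, showed a wide range. Genes of desmosomes and epithelial junctions held the mark in both E14 libraries at 7 of 9 (77.8%), beside 19.5% of coding genes. These were Cdh1, Epcam, Dsp, Perp, Pkp1, Pkp3 and Cldn4. Of the 9 genes, 6 (66.7%) had a peak in both E17 libraries, beside 12.2% of coding genes. Cdh1, which encodes E-cadherin, had 6793 bp in each E14 library and 5297 and 5529 bp at E17. Of 26 cornification enzymes and barrier genes, 6 (23.1%) were marked in both E14 libraries, near the 19.5% of all coding genes, among them Ppl and Evpl, whose products periplakin and envoplakin attach the envelope to filaments. Ppl had 3951 and 3886 bp at E14 and 2484 and 2351 bp at E17, and Evpl had 1338 and 1224 bp at E14 and no peak at E17. Of 26 other genes of the epidermal differentiation complex, the gene cluster around Lor on chromosome 3, 2 (7.69%) were marked in both E14 libraries, below the 19.5% of coding genes. They were Tchh, which encodes trichohyalin of the inner root sheath, and S100a9. Tchh had 4525 and 3227 bp at E14 and 1128 and 1064 bp at E17. None of the 4 keratins with a letter in their symbol (Krt6a, Krt6b, Krt33a and Krt33b) had a peak.

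Fewer genes of the set were marked at E17 than at E14. The mean number with a peak was 19.5 ± 4.95 (SD, n = 2) at E14 and 11 ± 1.41 (n = 2) at E17, a decrease of 43.6%. The 2 stages did not overlap, and an exact permutation test, two-sided, gave p = 0.333, the smallest value that the 3 splits of 2 against 2 libraries allow, so this design cannot pass 0.05. All protein-coding genes decreased by 37.8% over the same libraries, from 4938 ± 573 to 3072 ± 362 (n = 2 each). The length under peaks at the 145 genes was 52.8 and 31.6 kb at E14 and 23.8 and 14.1 kb at E17. Its mean fell from 42.2 ± 15 kb to 19.0 ± 6.84 kb (n = 2 each), a decrease of 55.0%, and the exact permutation p was again 0.333. For all protein-coding genes the decrease in length was 46.6%.

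The decrease in the number of marked genes was not seen once the lists had the same length. With each list held to its 7107 peaks of lowest q-value, the length of the shortest list, 12 and 7 genes of the set were marked at E14 and 10 and 10 at E17. The means were then 9.5 ± 3.54 and 10.0 ± 0 (n = 2 each), an exact permutation p of 1, with overlapping stages. Among all protein-coding genes 16.4% and 15.5% were marked at E14 under this setting and 13.2% and 12.8% at E17. The length under peaks at the set was 38.7 and 17.9 kb at E14 and 20.6 and 14.1 kb at E17, so its mean still fell, by 38.6%, but the stages overlapped. All protein-coding genes fell by 39.2% in length, and by 18.3% in number, so the larger decrease of the set was not seen under this setting. The decrease of the set was larger than that of all coding genes under 10 of 12 alternatives in length and 13 of 16 in number. These alternatives score the same libraries again and are not independent. The gap in number was widest, at 71.4% against 54.3%, with peaks of a −log10 q-value of at least 5 (74.3% against 57.4% in length). This rests on few genes of the set, 8 and 6 at E14 and 3 and 1 at E17. Besides lists of equal length, the decrease of the set was not larger with the gene body added to the window, at 47.1% against 53.2% in length and 37.2% against 38.7% in number. Without E14 replicate 1 it was not larger in number, at 31.2% against 32.2%. From peak lists alone, depth and the amount of mark cannot be told apart.

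Loss and retention from E14 to E17 were close to those of the genome. Of the 16 genes marked in both E14 libraries, 9 (56.2%) were marked in both E17 libraries, beside 61.9% of the 4270 coding genes marked in both E14 libraries. No peak in either E17 library was found at 5 (31.2%), beside 23.8%. Less length in both E17 than in both E14 libraries was found at 13 (81.2%), beside 84.2%. These shares were near those of all coding genes and show nothing particular to keratin and envelope genes. No gene of the set was marked in both E17 libraries without being marked in both E14 libraries in the full lists. With lists of equal length, 7 genes were marked in both E14 and 9 in both E17 libraries, beside 14.1% and 11.6% of coding genes, and Krt18 and Krtap5-1 were then marked in both E17 but not in both E14 libraries. In the full lists, the 9 genes marked in all 4 libraries were Krt1, Krt8, Krt18, Krt79, Krt87, Krtap5-1, Krtap5-4, Krtap17-1 and Lor.

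The peaks at the set ranked lower than those at marked coding genes in general. The best peak of a marked gene had a median percentile of fold enrichment of 66.8 and 56.2 in the E14 lists and 52.9 and 58.1 in the E17 lists. For all marked coding genes the medians were 83.7 and 82.1 at E14 and 78.6 and 72.9 at E17, higher in every library. Median covered length per marked gene was 1482, 1590, 1479 and 858 bp in E14 replicate 1, E14 replicate 2, E17 replicate 1 and E17 replicate 2, beside 2727, 2520, 2299 and 2144 bp for coding genes. Counts fell with a stricter threshold, in the set and among all coding genes. With peaks of a −log10 q-value of at least 3, 10 genes of the set were marked in both E14 libraries, beside 16.8% of coding genes. At a −log10 q-value of at least 5, the E14 count was 6 (Krt1, Krt8, Krt79, Krt87, Krtap17-1 and Lor), beside 11.6% of coding genes. Krt87 alone was then marked in both E17 libraries, beside 4.44% of coding genes.

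Position within the genes varied. At 14 of the 16 genes the peaks of the 2 E14 libraries overlapped each other, the exceptions being Krt2 and Krt27. The shared region covered the annotated gene start at 9 of these 14 and lay elsewhere in the windows at 5, and it reached coding sequence at 13. Such positions were not counted over all coding genes, so these counts show nothing particular to the set. At Krt87 a stretch of 2834 bp was under peaks in all 4 libraries (chr15:101437552-101440385), from position -1581 to position 1252 relative to the start of the gene. At Krt8 it was 2121 bp (chr15:102002251-102004371), all within the gene and mostly intronic, with 474 bp in exons. At Krt1 the stretch shared by all 4 libraries, 979 bp (chr15:101843418-101844396), lay past the 3′ end of the gene and partly within 3000 bp of the start of a shorter annotated transcript. The peaks nearest to the annotated start of Krt1 were 0.094 and 1.43 kb away at E14 and 5.17 and 3.63 kb away at E17. At Krt79 they were far from it at both stages, 8.77 and 9.39 kb at E14 and 9.76 and 10.1 kb at E17. With the annotated gene start as the only start site, 15 genes were marked in both E14 libraries and 7 in both E17 libraries, beside 17.7% and 11.1% of coding genes. At Lor it was 913 bp (chr3:92082096-92083008), within the gene and in no exon.

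Few of these peaks lay near other protein-coding genes. Krtap5-1 and Krtap5-4 had peaks near both genes, a peak at Krtap4-13 in E14 replicate 1 was nearest to Gm11554, and the peak at Krtap28-10 lay within 3000 bp of Gm47969. At the other marked genes of the set no other protein-coding start site was within 3000 bp of the peaks. Counting a peak only for the gene with the nearest start left the 16 and 9 genes as they were in number.

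Most of the genes lie in clusters, and the clusters differed in coverage. The keratin cluster on chromosome 15 (chr15:101347444-102032027, 24 keratins) had 6.58% and 4.14% of its length under peaks at E14 and 2.38% and 1.51% at E17. These shares were above the 1.93%, 1.17%, 0.732% and 0.524% of the assembled chromosomes in the corresponding libraries. Of its 24 keratins, 9 (37.5%) were marked in both E14 libraries, beside 19.5% of coding genes, and 5 (20.8%) in both E17 libraries, beside 12.2%. Marked genes stood in 2 groups, from Krt7 to Krt86 and from Krt2 to Krt18, and the genes from Krt83 to Krt73 between them had no peak within 3000 bp.

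**Figure D2:**
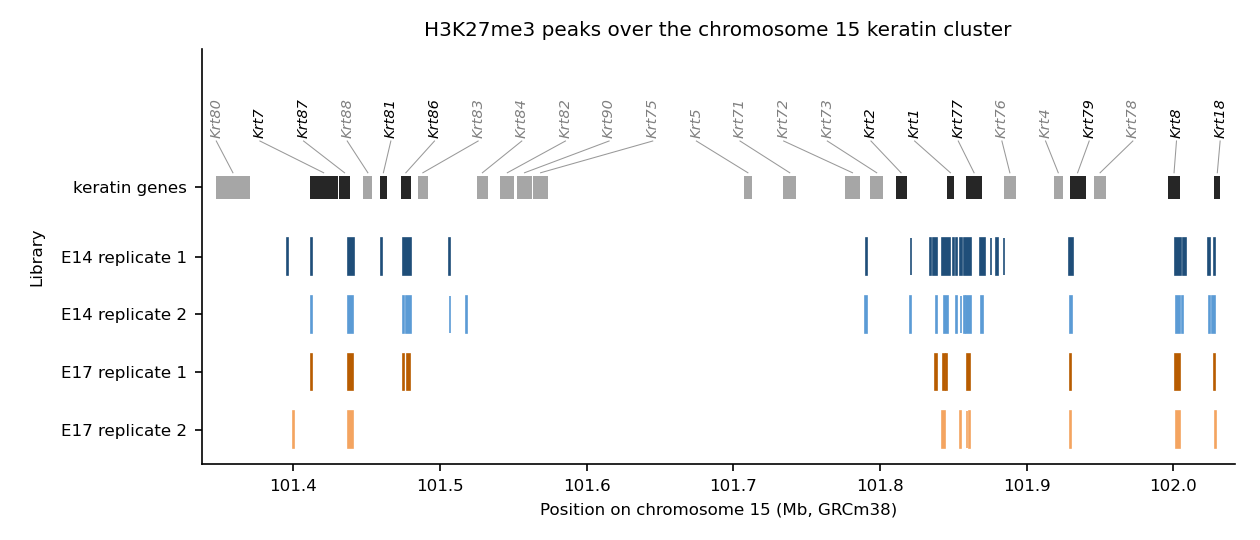
Peaks of the 4 libraries (rows) over the chromosome 15 keratin cluster (horizontal axis, Mb in GRCm38), with keratin genes above, black where a peak lies within 3000 bp of a start site in at least 1 library and grey where none does. The number of peaks in the span is 24 and 20 at E14 and 11 and 9 at E17, and the narrowest peaks are drawn at the width of the line.

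On chromosome 11 the cluster of type I keratins and keratin-associated proteins (chr11:99232761-100269871, 48 genes of the set) had 2.55% and 1.02% of its length under peaks at E14 and 0.248% and 0.0488% at E17. The number of peaks was 16 and 11 at E14 and 2 and 1 at E17. Of 25 keratins there, 2 (8%) were marked in both E14 libraries, beside 19.5% of coding genes, and 0 in both E17 libraries, beside 12.2%. Krtap17-1 was the only gene of this cluster with a peak in both E17 libraries.

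The remaining clusters were at opposite ends. The Krtap5 genes on chromosome 7 (chr7:142174535-142304594, 5 genes of the set) had 19.8% and 11.3% of the span under peaks at E14 and 13% and 7.56% at E17. The keratin-associated protein cluster on chromosome 16 (chr16:88610705-89571183, 24 genes of the set) had no peak in any library over 0.96 Mb, although 87.7% of its pieces mapped to a single place.

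The epidermal differentiation complex on chromosome 3 (chr3:92080271-93293686, 39 genes of the set) had 8 and 3 peaks at E14 and 16 and 8 at E17, more at E17 than at E14 by mean, with stages that overlapped. In a span of 75.6 kb from Sprr2a1 to Sprr2a3, singled out after its values were seen, lay 4 and 0 of these peaks at E14 and 14 and 7 at E17. This span is repeated sequence, and 2.38% of its 100 bp pieces mapped to a single place. The median percentile of fold enrichment of its peaks was 1.76 in E14 replicate 1, 1.69 in E17 replicate 1 and 2.29 in E17 replicate 2, with single peaks as high as 2.93, 19.8 and 62.9, and another at 51.2 in E17 replicate 2. Outside it the complex held 4 and 3 peaks at E14 and 2 and 1 at E17. The part of multiply mapped reads in the Sprr2a peaks was not tested.

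The genes of the set start in CpG-poor sequence. The ratio of observed to expected CpG within 500 bp of the gene start had a median of 0.18 over the 145 genes, beside 0.552 over all protein-coding genes. None of the 145 reached 0.6, beside 45.9% of coding genes. The median was 0.363 at the 16 genes marked in both E14 libraries and 0.168 at the 121 genes without a peak. Among coding genes the corresponding medians were 0.607 and 0.511.

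The set was then compared with coding genes of similar CpG content. Within classes chosen after the values were seen, 7 of 109 genes of the set with a ratio under 0.3 were marked in both E14 libraries (6.42%), beside 10.1% of coding genes in that class. From 0.3 to 0.6 it was 9 of 36 (25%), beside 29.2%. Both shares of the set were below those of coding genes, but they rest on 7 and 9 marked genes, and the gaps were not tested. They show no clear difference from coding genes of similar CpG content. The part of CpG content in the lower share of the whole set was not tested. Among coding genes with a ratio of 0.6 or more, a class without members of the set, 21.8% were marked, fewer than from 0.3 to 0.6, so the share did not rise with CpG content throughout. Olfactory receptor genes with a ratio under 0.3 were marked at 19 of 1077 (1.76%), but their CpG content was lower, with a median ratio of 0.106 over all olfactory receptor genes.

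**Figure D3:**
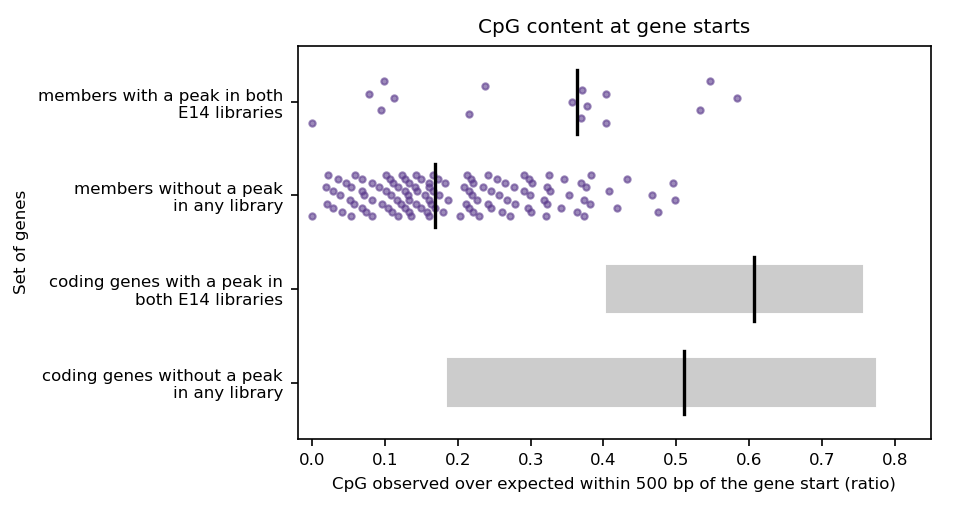
Observed over expected CpG within 500 bp of the gene start (horizontal axis, ratio) for genes of the set with a peak in both E14 libraries and without a peak in any library (points, 1 per gene), and for all protein-coding genes in the same states (grey boxes, lower to upper quartile), with medians as black lines. The medians are 0.363 and 0.168 for the set and 0.607 and 0.511 for coding genes.

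Promoter sequences show this range, taken from the RefSeq promoter table of GRCm38.p6, with 250 bases before and 50 after the start. Of the 145 genes, 123 had an entry. The motif searched was CG, which reads the same on both strands, and its occurrences are in capitals. The median number per promoter was 2 in the set and 7 over all 32851 promoters. It was 4.5 over 12 promoters of genes marked in both E14 libraries and 2 over 107 promoters of genes without a peak. The 4 promoters of genes with the greatest covered length that had an entry are given, on the strand of the gene. Krtap5-4 (chr7:142303252-142303551, plus strand) held 3 CG, and 76.7% of all promoters held as many or more. Krtap5-1 (chr7:142297085-142297384, minus strand) held none. Krt8 (chr15:102004293-102004592, minus strand) held 6, as many or more being present in 56.4% of promoters, and Lor (chr3:92083093-92083392, minus strand) held 1, as many or more being present in 94.6%.
Krtap5-4: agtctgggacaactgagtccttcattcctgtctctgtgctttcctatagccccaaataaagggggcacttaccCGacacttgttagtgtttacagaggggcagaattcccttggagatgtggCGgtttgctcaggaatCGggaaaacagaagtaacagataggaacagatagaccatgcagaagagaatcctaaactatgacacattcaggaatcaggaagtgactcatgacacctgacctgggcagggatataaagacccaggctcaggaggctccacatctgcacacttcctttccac
Krtap5-1: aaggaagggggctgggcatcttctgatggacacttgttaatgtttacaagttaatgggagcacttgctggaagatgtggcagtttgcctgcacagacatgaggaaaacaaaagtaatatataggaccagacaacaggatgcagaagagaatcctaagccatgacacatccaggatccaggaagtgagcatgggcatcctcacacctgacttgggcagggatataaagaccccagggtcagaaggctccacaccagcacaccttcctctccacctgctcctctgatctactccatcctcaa
Krt8: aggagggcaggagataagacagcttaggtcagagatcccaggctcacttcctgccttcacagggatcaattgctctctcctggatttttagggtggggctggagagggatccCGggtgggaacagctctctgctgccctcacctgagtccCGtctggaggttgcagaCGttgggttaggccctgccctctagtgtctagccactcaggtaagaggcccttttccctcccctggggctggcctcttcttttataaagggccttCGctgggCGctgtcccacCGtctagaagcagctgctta
Lor: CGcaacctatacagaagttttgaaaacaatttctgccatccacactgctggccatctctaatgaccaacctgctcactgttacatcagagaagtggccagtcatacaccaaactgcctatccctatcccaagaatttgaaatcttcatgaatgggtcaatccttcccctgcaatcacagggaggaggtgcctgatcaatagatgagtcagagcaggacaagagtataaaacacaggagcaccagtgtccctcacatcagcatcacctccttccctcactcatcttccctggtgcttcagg

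The promoters of Krt5 and Krt14, the basal pair without a peak, are given for comparison. Krt5 (chr15:101712856-101713155, minus strand) held 6 CG, the same number as Krt8, and 56.4% of promoters held as many or more. Krt14 (chr11:100205981-100206280, minus strand) held 5, and 62.0% held as many or more. The RefSeq start used for Krt14 lies 1518 bp downstream of the GENCODE gene start.
Krt5: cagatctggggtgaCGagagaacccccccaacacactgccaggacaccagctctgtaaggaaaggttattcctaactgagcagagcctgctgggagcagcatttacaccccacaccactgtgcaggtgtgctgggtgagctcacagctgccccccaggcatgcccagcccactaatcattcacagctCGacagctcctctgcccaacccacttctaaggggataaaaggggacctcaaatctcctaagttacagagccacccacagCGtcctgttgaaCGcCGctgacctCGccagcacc
Krt14: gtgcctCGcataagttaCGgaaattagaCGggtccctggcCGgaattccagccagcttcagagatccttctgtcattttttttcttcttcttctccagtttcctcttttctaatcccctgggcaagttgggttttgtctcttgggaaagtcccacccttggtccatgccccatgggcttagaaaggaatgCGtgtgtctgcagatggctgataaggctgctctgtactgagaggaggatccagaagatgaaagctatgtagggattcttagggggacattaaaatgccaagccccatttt

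Inside the regions under peaks in all 4 libraries, Krt8 and Lor differed in CpG content. The 200 bases richest in CG within that region, searched outside untranslated sequence, lie in coding sequence of Krt8 (GRCm38, chr15:102004001-102004200, minus strand). They held 16 CG, a number reached in the first 200 bases of 15.9% of all RefSeq promoters. At Lor the richest 200 bases held 2 CG, a number reached in 75.4%. Each is the highest count over a searched region, whereas the promoters were read at a fixed place, so the shares are a scale only. Both genes were chosen after their values were seen, and CG is again in capitals in the stretch from Krt8.
Krt8 region: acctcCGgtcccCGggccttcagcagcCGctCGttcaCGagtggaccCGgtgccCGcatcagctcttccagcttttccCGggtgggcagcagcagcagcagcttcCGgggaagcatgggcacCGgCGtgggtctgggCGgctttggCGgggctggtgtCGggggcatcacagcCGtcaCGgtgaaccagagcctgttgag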

How the data were processed

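The authors aligned reads with Bowtie2 (2.3.5.1) and SAMtools (1.9) to mm10, called broad peaks for each library with MACS2 (2.2.7.1) at a q-value cutoff of 0.01, and used deepTools (3.5.1), with versions from the submitters' processing notes. The deposited lists give each peak a fold enrichment, a linear ratio over local background, and a −log10 q-value. Replicates were not pooled, and how the control entered the calls is not given in the sources used here. An input library is labelled in the series and was not analysed here. The methods state that E18.5 WT and Kdm6b-knockout samples, listed apart from the WT samples of both stages, were subsampled to the read depth of other samples. Whether this covers the E17 libraries is not clear.

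No peak ran past the end of a GRCm38 chromosome. Genes and start sites came from GENCODE release 21. Presence of a peak, covered length and percentile of fold enrichment within a list were computed in Python 3.11.15 with pandas 2.3.3 and pysam 0.24.0, after a test on simulated peaks. Window pieces of 100 bp counted as having a single place where minimap2 (2.31-r1302) returned them to their origin with mapping quality 30 or more. Stages were compared by exact permutation over libraries, two-sided. Chosen to be named were all genes of the set with a peak in any library, and Krt5, Krt14, Krt15, Krt1, Krt10, Krt8, Krt18, Krt19, Krt71, Krt25, Lor, Ivl and Flg. Some further genes without a peak, among them Krt16, Krt17, Krt20, Krt23, Krt9, Krt80, Krt83 and Krt73, were named to complete a list or to bound a span. The genes and lists were chosen with earlier results of these data known. Alternatives covered q-value, peak width, window, start sites, assignment, list length, symbol rule, libraries and replicate block.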

Additional observations from a re-analysis of the deposited data

How the results depend on the processing

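The count of genes marked in both E14 libraries, 16, stayed within 1.5 times under 15 of 18 alternatives and moved to 10 and 6 with peaks of a −log10 q-value of at least 3 and 5, and to 7 with lists of equal length. The count of 9 in both E17 libraries stayed within 1.5 times under 16 of 18 and moved to 1 with a −log10 q-value of at least 5 and to 5 with peaks of at least 1000 bp. The percent decrease in the mean number of marked genes, 43.6, kept its direction under 16 of 17 alternatives and turned to -5.26 with lists of equal length of 7107 peaks each, with a highest value of 71.4 at a −log10 q-value of at least 5. The percent decrease in covered length, 55.0, kept its direction under all 13 alternatives run, between 38.6 and 74.3. No alternative passed the test's threshold, which this design does not reach.

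Leaving out each library in turn gave 16 to 23 genes at E14, 9 to 12 at E17, a decrease in number of 31.2% to 52.2% and a decrease in length of 39.9% to 66.5%. With the replicate block, the mean of the decreases within replicate numbers was 42.7% in number and 55.1% in length, with the smallest p that sign flips of 2 pairs allow, 0.5. The differences between replicates correlated between stages at 0.165 over 5675 coding genes with a peak and at 0.63 over the 24 genes of the set with a peak. Nothing in the labels or methods ties equal numbers to shared animals, and 2 pairs are too few to read pairing from the data.

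After the data were seen, 2 alternatives were added. With at least 50% of the window mapping to a single place, 15 and 9 genes were marked at E14 and E17, beside 20.4% and 12.8% of coding genes. With overlapping peaks required in both libraries of a stage, it was 14 and 9, beside 19.1% and 11.9%.

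The lists give no depth, whether the stated subsampling covers them is not clear, and the part of depth in these counts was not tested. With 2 libraries a stage, the exact permutation p has a floor of 0.333.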
